A study of Mus musculus with 24 samples.

Results

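The genes described here encode subunits of the mitochondrial respiratory chain and of the ATP synthase it drives. They were chosen by gene symbol among probe sets that name 1 gene: Nduf genes of complex I, Sdha to Sdhd of complex II, Uqcr genes and Cyc1 of complex III, Cycs, Cox4 to Cox8 genes of complex IV and Atp5 genes of complex V. The rule found 83 genes on 169 probe sets, of 18194 genes on 34958 probe sets that name 1 gene. Complex I held 35 genes, complex II 4, complex III 9, cytochrome c 1, complex IV 17 and complex V 17. Ndufa4 is counted with complex I by its symbol, although its protein is also known as a subunit of complex IV. Symbols follow the annotation used here, which keeps older names such as Atp5a1 and Atp5g1.

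The cells were cortical neurons taken from E18 mice and treated after 1 week of culture. The 4 treatments were BDNF at 50 ng/ml together with IBET858 at 1 µM, IBET858 at 1 µM alone, BDNF at 50 ng/ml alone, and the solvent DMSO. RNA was collected after 2 h and after 12 h, with 3 arrays for each of the 8 groups. IBET858 blocks the BET proteins, readers of acetylated histones that help RNA polymerase to elongate, and BDNF is a growth factor that acts on neurons through the receptor TrkB. Replicates are numbered in the labels with no statement that each is a culture of its own, and a p-value thus covers only the spread between these samples. In bulk RNA, fewer cells of a type and less RNA per cell cannot be told apart.

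Complexes I and II pass electrons from NADH and succinate to ubiquinone, complex III passes them to cytochrome c, and complex IV passes them to oxygen. Complexes I, III and IV pump protons, and complex V uses the resulting gradient to make ATP, on which neurons depend for ion pumping and synaptic transmission. Most subunits, including every gene described here, are encoded in the nucleus and imported, while the hydrophobic cores of complexes I, III, IV and V come from mitochondrial DNA. The transcription factors NRF1, the ETS family member GABP and YY1 are known to act on promoters of many nuclear respiratory genes.

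The values are log2 intensities that the authors had centred on the median of each probe set, so they show differences between arrays and no level of a transcript. Levels of different genes are therefore not compared, and whether neuronal or glial markers were absent could not be read. Among the members the within-group standard deviation had a median of 0.062 log2 units and ran from 0.020 to 0.201, against a median of 0.105 over all genes. Cox6b2, Cox8b and Cox7b2 had the widest spread. Replicate 1 of DMSO at 2 h and replicate 3 of IBET858 at 12 h lay far from their groups, with standard deviations around the group mean of 0.178 and 0.157, against 0.072 to 0.117 on the other arrays. A gene was called at a limma adjusted p under 0.05, and a difference is given on the log2 scale with its standard error after the ± sign.

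After 12 h, members were called lower much more often than higher in each of the 4 treatment comparisons, and at 2 h few were called at all. With IBET858 the largest falls were in complex I genes, led by Ndufs1, and few complex IV genes fell. With BDNF alone the largest falls were in Cox6b2, Ndufa6 and Ndufa7, and Ndufb1, Cycs and Cyc1 rose.

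**Figure D1:**
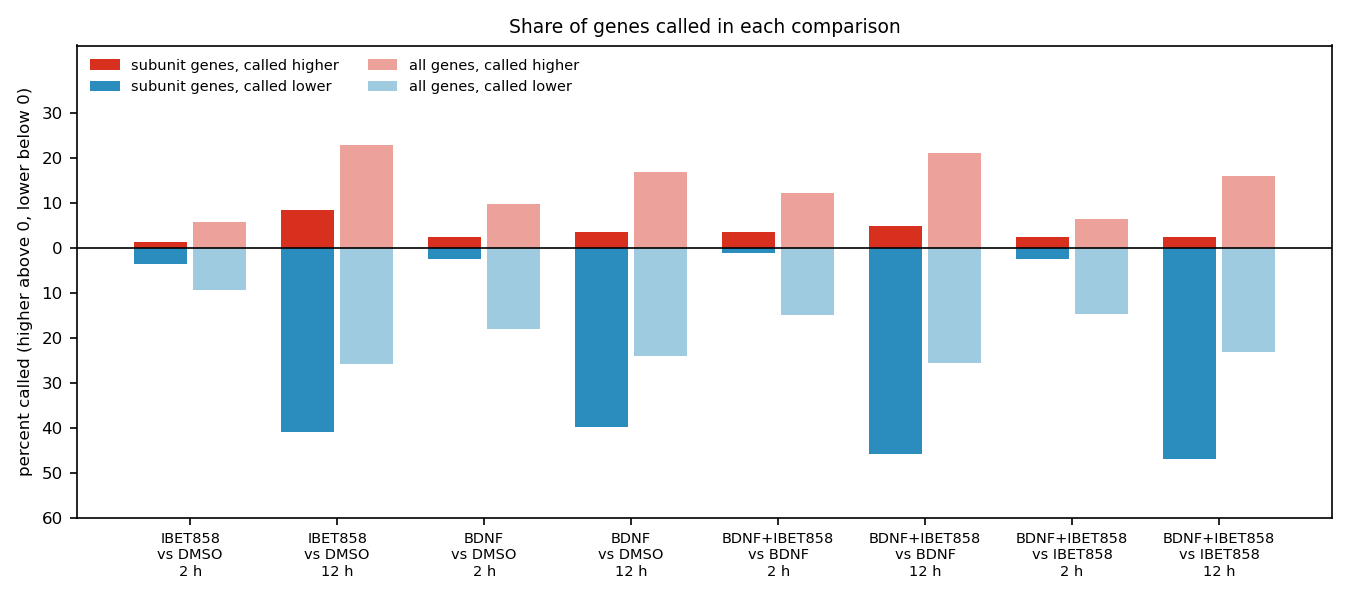
Percent of the 83 subunit genes and of all 18194 genes called higher (above 0) and lower (below 0) at an adjusted p under 0.05 in 8 comparisons. At 12 h the blue bars of the subunit genes, 39.8% to 47.0%, are longer than those of all genes, 23.2% to 25.8%, and the red bars are shorter.

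IBET858 at 12 h was compared with DMSO at 12 h to see what the inhibitor did without added BDNF. Of the 83 members, 34 fell and 7 rose, against 25.8% lower and 22.9% higher among all genes. The median of the members was -0.087, and that of all genes was 0.041. Complex I contributed 20 of the falls and complex IV 1. Ndufs1 was the 1 member that fell over 2-fold, and none rose as far.

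Within complex I, 20 of 35 genes fell and 1 rose, with a median of -0.21. Ndufs1 encodes the largest of the iron-sulfur subunits on the path from NADH to ubiquinone. It read -1.0, -1.0 and -1.15 with IBET858, against 0.11, 0.19 and 0.13 with DMSO. Every IBET858 array lay far below every DMSO array, and the difference was -1.19 ± 0.053 (limma adjusted p = 1.96e-13, n = 3 per group), a level 2.29-fold lower. Ndufs1 was read by 1 probe set.

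Ndufb7, an accessory subunit at the intermembrane face of the membrane arm, read -0.81, -0.91 and -0.81 with IBET858, against -0.08, -0.03 and 0.0 with DMSO. The arrays did not overlap, and the difference was -0.81 ± 0.058 (limma adjusted p = 2.04e-10). Both of its probe sets fell, by 0.78 and 0.84. Ndufs8, a core subunit with iron-sulfur clusters close to the ubiquinone site, read -0.64, -0.60 and -0.51 with IBET858, against 0.04, 0.08 and -0.01 with DMSO. The arrays were again separate, at -0.62 ± 0.048 (limma adjusted p = 7.75e-10), and 5 of its 6 probe sets were called lower.

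Ndufb1, a small accessory subunit of the membrane arm, fell by 0.78 on the log2 scale (SE 0.082), Ndufa5 by 0.57 (SE 0.11) and Ndufa9, an accessory subunit beside the ubiquinone-binding module, by 0.56 (SE 0.051). Ndufs4, whose loss in mice causes a fatal encephalopathy, fell by 0.50. Its 4 probe sets ran from -1.24 to 0.12, and 3 of them were called lower. Ndufa12 was the complex I gene that rose, with 0.18, 0.30 and 0.14 on IBET858 arrays against -0.13, -0.02 and -0.01 on DMSO arrays. The arrays of Ndufa12 did not overlap, at 0.26 ± 0.062 (limma adjusted p = 0.00142).

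The 6 core subunits of complex I encoded in the nucleus (Ndufs1, Ndufs3, Ndufs7, Ndufs8, Ndufv1 and Ndufv2) carry the cofactors and hold the catalytic fold. All 6 fell with IBET858, with a median of -0.30, and 14 of the 29 other complex I genes fell, with a median of -0.13. This split by role was drawn after the values were seen and carries no test. Ndufv1, which binds NADH and the flavin, was at -0.30, and Ndufs3 at -0.31. Several probe sets of Ndufb2, Ndufb9 and Ndufc2 were called in opposite directions, and the means of these genes were not called.

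In complex II, which is also an enzyme of the Krebs cycle, 3 of 4 genes fell, with a median of -0.20. The iron-sulfur subunit gene Sdhb read -0.40, -0.29 and -0.25 with IBET858, against 0.02, 0.08 and 0.04 with DMSO. All IBET858 arrays lay below the DMSO arrays, at -0.36 ± 0.061 (limma adjusted p = 3.66e-05). The membrane anchors Sdhd and Sdhc were at -0.22 and -0.18. Sdha, the flavoprotein, was at -0.067 and was not called, and its probe sets disagreed, with 1 called at -0.46 and another at 0.12.

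In complex III, 4 of 9 genes fell and 2 rose, with a median of -0.064. With only probe sets without the suffixes _s_, _x_ or _a_ the median was 0.16, over fewer genes. That set leaves out Uqcrc1 and Uqcrc2, which were both called lower and have no such probe set. Uqcrfs1, the Rieske iron-sulfur protein, read -0.47, -0.33 and -0.33 with IBET858, against 0.13, 0.21 and 0.16 with DMSO. Uqcrc2, a core protein, read -0.52, -0.40 and -0.63 with IBET858, against -0.05, 0.06 and 0.0 with DMSO. Neither gene's arrays overlapped, and Uqcrfs1 fell by 0.55 (SE 0.048, limma adjusted p = 4.32e-09) and Uqcrc2 by 0.52 (SE 0.053, limma adjusted p = 4.74e-08). The ubiquinone-binding subunit gene Uqcrb and the core protein gene Uqcrc1 were lower by smaller amounts, at -0.21 and -0.20.

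The hinge protein gene Uqcrh, by contrast, rose by 0.25 ± 0.059 (limma adjusted p = 0.00152), with 0.17, 0.35 and 0.45 on IBET858 arrays against 0.05, 0.18 and 0.01 on DMSO arrays. The 2 groups of Uqcrh overlapped on 1 array each. Uqcr11 was called at 0.16 and its groups overlapped too. The call of Uqcr11 was lost without DMSO replicate 1 or 3 or IBET858 replicate 2 or 3, at its lowest 0.091 (limma adjusted p = 0.22), with array weights, with each array centred on its median and with only the groups compared. Cycs, the electron carrier that also triggers apoptosis when it leaks into the cytosol, was at -0.13 ± 0.054 (limma adjusted p = 0.0567). It was called lower with array weights (-0.14, limma adjusted p = 0.0423) and with each array centred on its median (-0.15, limma adjusted p = 0.0359). Its probe set with the lowest p was also called lower (-0.26, limma adjusted p = 0.00337).

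Of the 17 complex IV genes, 3 rose and 1 fell, and the median was 0.0037, or -0.017 with each array centred on its own median. Cox7c, a small subunit made in all tissues, read 0.60, 0.67 and 0.40 with IBET858, against -0.28, -0.01 and -0.13 with DMSO. All IBET858 arrays were above all DMSO arrays, at 0.69 ± 0.088 (limma adjusted p = 9.69e-07), and both probe sets of Cox7c rose. Cox6b2 and Cox7b2, paralogues best known from testis, rose by 0.65 (SE 0.15) and 0.46 (SE 0.12). Cox7a1, the paralogue of heart and skeletal muscle, was the gene that fell, at -0.39. The widely expressed Cox4i1, Cox5a, Cox5b, Cox6a1, Cox6b1, Cox6c, Cox7a2 and Cox8a were between -0.092 and 0.077, with no call.

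Of the 17 complex V genes, 6 fell and 1 rose, with a median of -0.087. Genes of the peripheral stalk, which keeps the catalytic head from turning, were among them: Atp5j was at -0.30, Atp5pb at -0.29 and Atp5o at -0.26, while Atp5h was at -0.071 with no call. Atp5j read -0.35, -0.26 and -0.14 with IBET858, against 0.02, 0.07 and 0.04 with DMSO, and the groups did not overlap (-0.30 ± 0.050, limma adjusted p = 3.42e-05). Atp5a1 and Atp5b, which form the catalytic ring, were at 0.024 and -0.16 with no call. Atp5c1, the rotating central stalk, was called higher at 0.15 (limma adjusted p = 0.0329), but its 2 probe sets were called in opposite directions, at 0.43 and -0.14. The call of Atp5c1 was lost without any 1 of 5 of the 6 arrays.

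**Figure D2:**
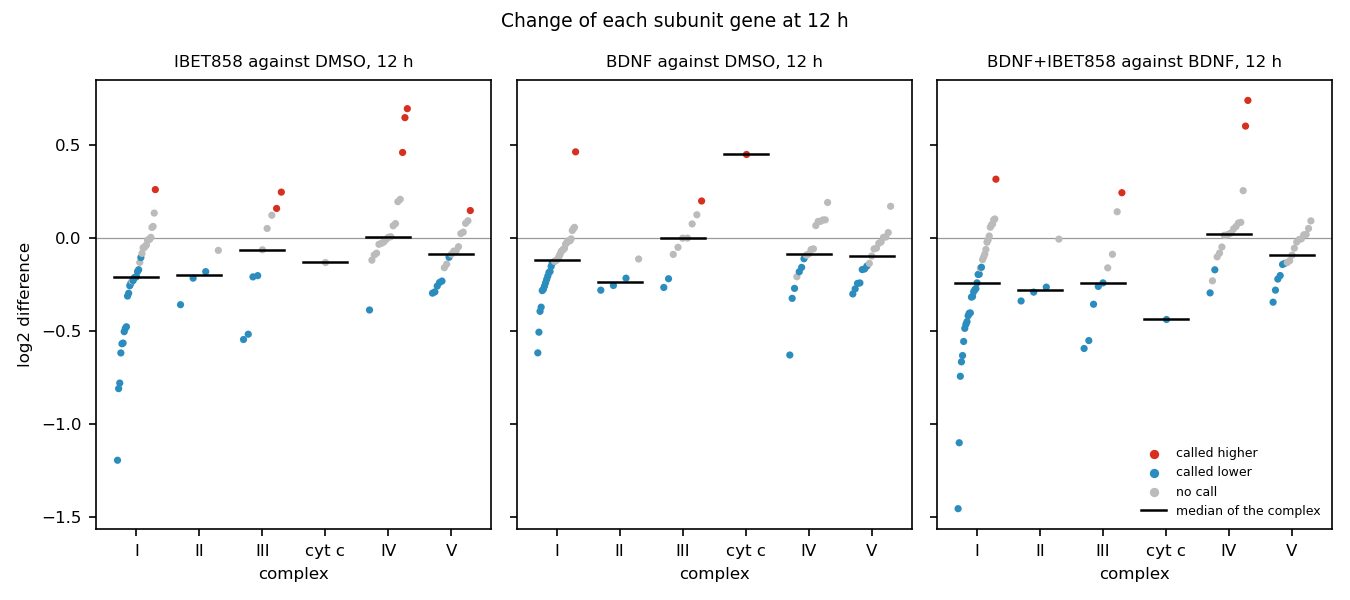
Each point is 1 subunit gene, grouped by complex, with its log2 difference at 12 h for IBET858 against DMSO (left), BDNF against DMSO (middle) and BDNF+IBET858 against BDNF (right). Black lines are medians, and red and blue points were called higher and lower. In both IBET858 panels the complex I points reach lowest, down to -1.19 and -1.45, and Cox7c is the highest point.

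Several measurements moved with IBET858 at 12 h. The mean of the poly-A spike-in controls ran from 0.50 to 0.91 on the IBET858 arrays and from 0.41 to 0.66 on the BDNF+IBET858 arrays, against -0.13 to 0.038 on BDNF arrays and -0.50 to -0.041 on DMSO arrays. Among 6 microglia markers, 4 fell, and their mean ran from -0.45 to -0.32 with IBET858, against -0.09 to -0.04 with DMSO. Of 4 excitatory neuron markers 3 fell (array means -1.13 to -0.82 with IBET858, against -0.15 to 0.07 with DMSO), and of 7 general neuron markers 4 fell and 1 rose (-0.38 to -0.17, against -0.26 to -0.20). Of 6 astrocyte markers 3 fell (-0.32 to -0.18, against -0.03 to 0.55). The part of these shifts in the members' values was not tested. Without IBET858 replicate 3 and DMSO 2 h replicate 1, 37 members fell and 6 rose with IBET858 at 12 h. Over all genes 26.4% fell and 21.2% rose there.

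At 2 h, IBET858 changed few members. Against DMSO at 2 h, 3 fell and 1 rose, where 9.27% of all genes were lower and 5.64% higher, and the median of the members was 0.034. Ndufb4, an accessory subunit of complex I, read -0.67, -0.43 and -0.38 with IBET858, against 0.15, 0.11 and 0.02 with DMSO, without overlap (-0.59 ± 0.12, limma adjusted p = 0.00154). At 12 h Ndufb4 was at -0.23 with no call. Cox7c, which rose at 12 h, read -0.12, -0.30 and -0.39 with IBET858 at 2 h, against 0.01, 0.02 and 0.04 with DMSO. The 2 h groups of Cox7c did not overlap, and it fell by 0.29 (SE 0.088, limma adjusted p = 0.0275), a call that was lost without any 1 of 5 of the 6 arrays.

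Atp5g1 and Atp5g2 encode the same mature c subunit of the rotor ring, and they moved in opposite directions at 2 h. Atp5g2 read -0.27, -0.21 and -0.17 with IBET858, against 0.03, -0.05 and 0.04 with DMSO, a fall of 0.23 (SE 0.056, limma adjusted p = 0.00695). Atp5g1 read 0.52, 0.42 and 0.54 with IBET858, against -0.25, 0.32 and 0.23 with DMSO, at 0.39 ± 0.11 (limma adjusted p = 0.0143). The low DMSO value of Atp5g1 was that of replicate 1, and without it the difference was 0.22 (limma adjusted p = 0.104). Without IBET858 replicate 3 it was 0.37 (limma adjusted p = 0.0589).

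The change of the IBET858 effect between 2 h and 12 h was tested directly. For 31 members the effect was lower at 12 h than at 2 h and for 3 it was higher, against 17.4% and 15.8% of all genes. The 12 h effect minus the 2 h effect was -1.13 ± 0.075 for Ndufs1, -0.88 ± 0.082 for Ndufb7 and -0.81 ± 0.15 for Ndufa5 (limma adjusted p of 5.15e-10, 4.89e-08 and 0.000253). For Cox7c it was 0.99 ± 0.12, for Cox6b2 0.79 ± 0.21 and for Uqcrh 0.22 ± 0.084 (limma adjusted p of 2.68e-06, 0.00559 and 0.0449). The call of Uqcrh was lost without any 1 of 9 of the 12 arrays. Between the DMSO groups themselves, 12 h against 2 h, 1 member was lower and none was higher by limma, with 11 at an unadjusted p under 0.05 (3.63% and 3.91% of all genes). It was Ndufs4, at -0.21 ± 0.054, a call lost without replicate 2 of either group. With the replicate number as a block across both times, where it was taken to pair the samples, 1 member was lower and 1 higher. Over all genes 5.41% and 5.32% were.

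**Figure D3:**
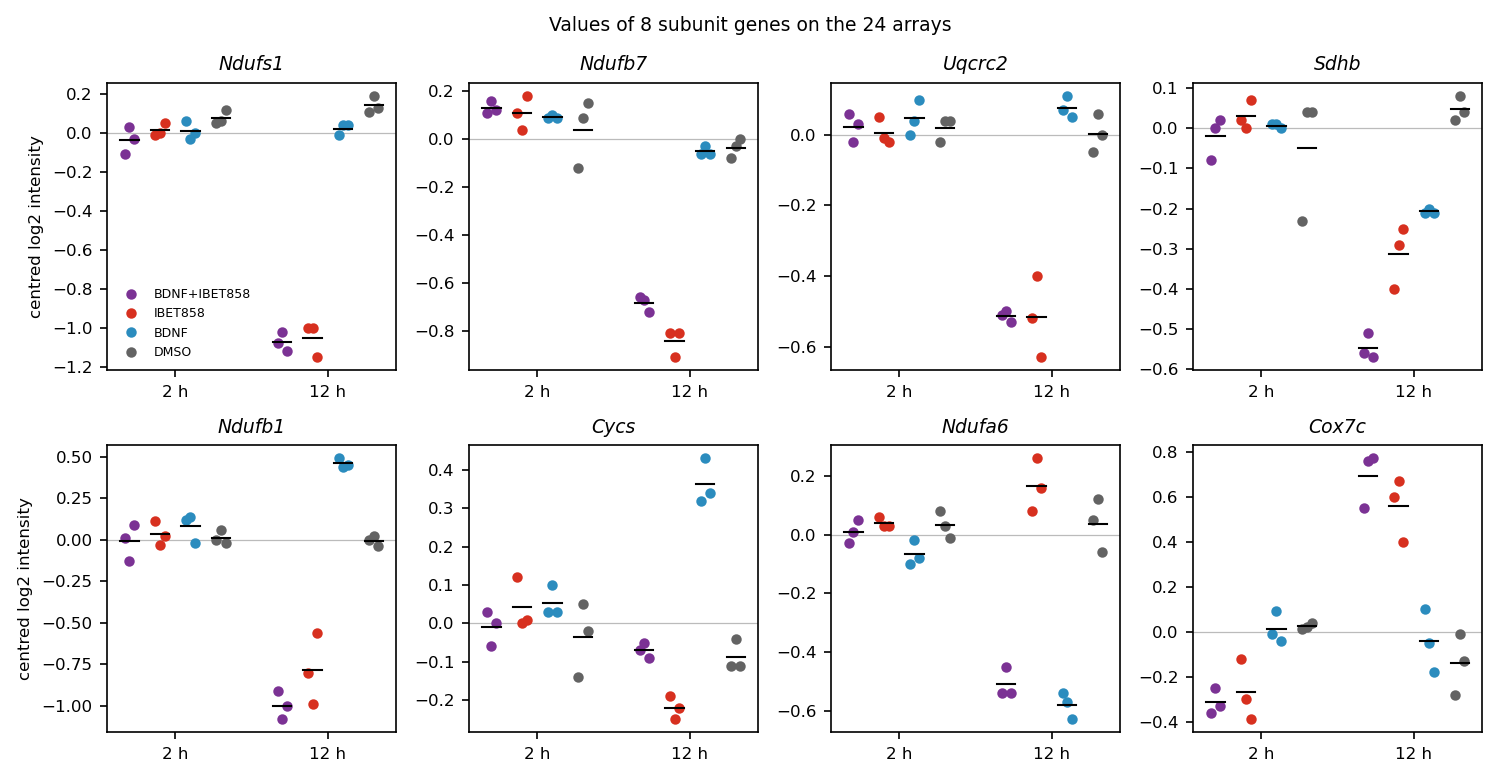
Values of 8 subunit genes on the 24 arrays, in centred log2 intensity, with each panel on its own scale. Points are arrays, black lines are group means, and the groups run BDNF+IBET858, IBET858, BDNF and DMSO at each time. Ndufs1, Ndufb7 and Uqcrc2 are low only in the IBET858 and BDNF+IBET858 arrays at 12 h, Ndufa6 only in the BDNF and BDNF+IBET858 arrays at 12 h, and Cox7c is low at 2 h and high at 12 h with IBET858.

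The inhibitor was also given together with BDNF. BDNF+IBET858 against BDNF at 12 h shares no array with IBET858 against DMSO. Of the 83 members, 38 fell and 4 rose, against 25.6% and 21.1% of all genes, with a median of -0.13 against -0.010 over all genes. In the same comparison 3 of 6 microglia markers fell (array means -0.45 to -0.41 with both treatments, against -0.28 to -0.17 with BDNF), and 2 of 4 excitatory neuron markers fell (-0.44 to -0.35, against 0.42 to 0.55). Of 7 general neuron markers 2 rose and 1 fell (-0.0 to 0.02, against -0.11 to -0.07). The part of these shifts in the members' values was not tested. Of the 34 members lower with IBET858 alone, 29 (85.3%) were lower here, which is 76.3% of the 38. This overlap was not counted over all genes, so it cannot be read as particular to the members. All 4 that rose here (Cox6b2, Cox7c, Ndufa12 and Uqcrh) were among the 7 that rose with IBET858 alone.

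By complex, 21 of 35 complex I genes fell and 1 rose (median -0.24), 3 of 4 of complex II fell (-0.28), 5 of 9 of complex III fell and 1 rose (-0.24), 2 of 17 of complex IV fell and 2 rose (0.021), and 6 of 17 of complex V fell (-0.093). The 6 core subunits of complex I all fell again, with a median of -0.46, and 15 of the other 29 fell, with a median of -0.16. Ndufs1 read -1.08, -1.02 and -1.12 with both treatments, against -0.01, 0.04 and 0.04 with BDNF, and its arrays did not overlap (-1.10 ± 0.053, limma adjusted p = 3.40e-13).

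Ndufb1 fell furthest, with -0.91, -1.08 and -1.0 on BDNF+IBET858 arrays against 0.49, 0.44 and 0.45 on BDNF arrays. The groups of Ndufb1 were far apart, at -1.45 ± 0.082 (limma adjusted p = 3.30e-12), a level 2.74-fold lower. Ndufb3, another membrane-arm accessory gene, was at -0.67 ± 0.046, Ndufs8 at -0.74 ± 0.048 and Uqcrc2 at -0.59 ± 0.053. Cycs read -0.07, -0.05 and -0.09 with both treatments, against 0.32, 0.43 and 0.34 with BDNF, without overlap (-0.43 ± 0.054, limma adjusted p = 5.63e-07). Cox7c was higher by 0.74 ± 0.088 and Cox6b2 by 0.60 ± 0.15. At 2 h, 1 member fell and 3 rose, against 14.9% and 12.2% of all genes. Cox7c was the one that fell, at -0.33 ± 0.088, and Ndufa4l2, Cox4i2 and Cox7b2 rose by 0.35, 0.29 and 0.35. The call of Cox4i2 was lost without any 1 of 5 of the 6 arrays and that of Cox7b2 without any 1 of 3.

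**Figure D4:**
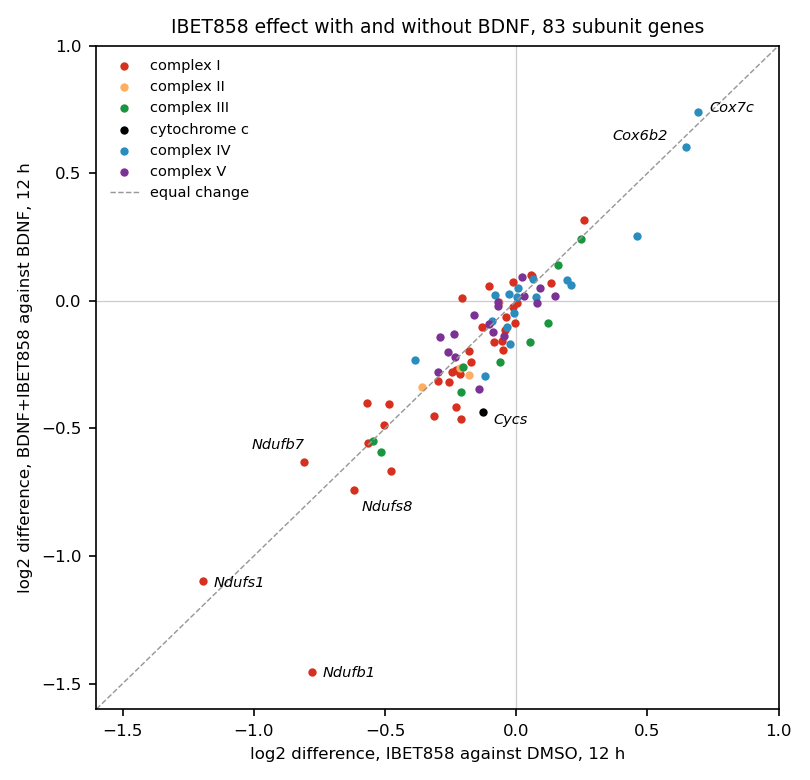
Log2 difference of each of the 83 subunit genes at 12 h, IBET858 against DMSO on the horizontal axis and BDNF+IBET858 against BDNF on the vertical axis, coloured by complex. The dashed line marks equal change. Ndufs1 lies near the line at -1.19 and -1.10, while Ndufb1 lies below it at -0.78 and -1.45 and Cycs at -0.13 and -0.43.

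BDNF against DMSO at 12 h asks what the growth factor did alone. Of the 83 members, 33 fell and 3 rose, against 24.2% and 16.9% of all genes, and the median was -0.097, against -0.012 over all genes. In complex I 15 of 35 fell and 1 rose (median -0.12), in complex II 3 of 4 fell (-0.24), in complex III 2 of 9 fell and 1 rose (-0.0014), in complex IV 6 of 17 fell (-0.086) and in complex V 7 of 17 fell (-0.097). No member changed over 2-fold. Cell type markers moved in the same comparison: 3 of 6 astrocyte markers fell (array means -0.30 to -0.14 with BDNF, against -0.03 to 0.55 with DMSO), as did 3 of 6 microglia markers (-0.28 to -0.17, against -0.09 to -0.04). Of 5 interneuron markers 3 rose (0.21 to 0.30 with BDNF, against -0.31 to -0.13 with DMSO), of 4 excitatory neuron markers 2 rose, and of 7 general neuron markers 4 fell and 3 rose. Their part in the members' values was not tested.

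Ndufa6, an accessory subunit that binds the mitochondrial acyl carrier protein, read -0.54, -0.57 and -0.63 with BDNF, against 0.05, 0.12 and -0.06 with DMSO. The arrays did not overlap, and the fall was 0.62 (SE 0.055, limma adjusted p = 9.49e-09). Ndufa7 was at -0.51 ± 0.068, Ndufv3, an accessory subunit of the NADH-oxidising module, at -0.39 ± 0.044, and Ndufc1 at -0.37 ± 0.042. These comparisons share their DMSO arrays with those of IBET858 alone, where Ndufa6 was at 0.13 and Ndufa7 at -0.011, both without a call, Ndufv3 at -0.21 and Ndufc1 at -0.10. Conversely, Ndufs1 was at -0.12, Ndufb7 at -0.015, Uqcrc2 at 0.075 and Uqcrfs1 at -0.051 with BDNF, none of them called.

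Some genes lay on opposite sides of DMSO with the 2 treatments, though in the main fit Cycs and Cyc1 were called with BDNF and not with IBET858. Some other settings called Cycs lower with IBET858. Ndufb1 rose with BDNF, at 0.46 ± 0.082 (limma adjusted p = 8.26e-05), against its fall with IBET858. Cycs read 0.32, 0.43 and 0.34 with BDNF, against -0.11, -0.04 and -0.11 with DMSO, and its groups did not overlap. The rise of Cycs was 0.45 ± 0.054 (limma adjusted p = 5.77e-07), and 3 of its 4 probe sets were called higher. Cyc1, the cytochrome of complex III that hands electrons to Cycs, was higher by 0.20 ± 0.068 (limma adjusted p = 0.0235), a call lost without BDNF replicate 2 or 3 or DMSO replicate 1. Cox6b2 fell by 0.63 (SE 0.15), Cox7b2 by 0.32 (SE 0.12), Uqcrh by 0.22 and Uqcr11 by 0.27 (SE 0.060), each of which was called higher with IBET858, although the call of Uqcr11 there was lost without any 1 of 4 of the 6 arrays. The fall of Cox7b2 lost its call without any 1 of 5 of the 6 arrays and with each array centred on its own median.

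At 2 h, BDNF against DMSO gave 2 members lower and 2 higher, against 18.1% and 9.79% of all genes, with a median of 0.0086. Atp5c1 read -0.20, -0.14 and -0.27 with BDNF, against 0.03, 0.10 and 0.03 with DMSO, at -0.25 ± 0.055 (limma adjusted p = 0.00128). Cox7a2l, which joins complexes III and IV into supercomplexes, was at -0.21 ± 0.045. Atp5d and Uqcrq were called higher, at 0.19 each. Without DMSO replicate 1 neither was called, and Atp5d was at 0.079. The call of Atp5d was also lost without any 1 of the BDNF arrays, and that of Uqcrq without BDNF replicate 1 or 2 or any 1 DMSO array.

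With the inhibitor present in both groups, BDNF+IBET858 against IBET858 at 12 h gave 39 members lower and 2 higher, against 23.2% and 16.1% of all genes. The median of the members was -0.13, and that of all genes was -0.065. Of 5 interneuron markers 2 rose here, of 4 excitatory neuron markers 1 rose and 2 fell, and of 7 general neuron markers 3 rose and 2 fell. The part of these markers was not tested. Of the 33 members lower with BDNF alone, whose arrays are not used here, 29 (87.9%) were lower, which is 74.4% of the 39. The same overlap over all genes was not counted here either. Ndufa6 read -0.54, -0.45 and -0.54 with both treatments, against 0.08, 0.26 and 0.16 with IBET858, without overlap (-0.68 ± 0.055, limma adjusted p = 2.80e-09). Cox6b2 was at -0.67 ± 0.15 and Cox7b2 at -0.53 ± 0.12. Cycs was higher by 0.14 ± 0.054 and Ndufb7 by 0.16 ± 0.058 (limma adjusted p of 0.0389 and 0.0298). The call of Cycs was lost without any 1 of 5 of the 6 arrays and that of Ndufb7 without any 1 of 3. At 2 h, 2 members were lower and 2 higher (14.7% and 6.44% of all genes), led by Atp5g1 at -0.46 ± 0.11 and Cox4i2 at 0.41 ± 0.096.

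Whether BDNF changed the IBET858 effect was tested as an interaction. At 12 h it was called for 3 members, 2 lower and 1 higher, against 7.24% and 8.94% of all genes. The IBET858 effect on Ndufb1 was lower by 0.67 in the presence of BDNF than without it (-0.67 ± 0.12, limma adjusted p = 0.000325), and that on Cycs also was (-0.31 ± 0.076, limma adjusted p = 0.00776). For Ndufv3 the interaction was 0.22 ± 0.063 (limma adjusted p = 0.0205): the IBET858 difference was 0.010 with BDNF and -0.21 without it. The call of Ndufv3 was lost without BDNF replicate 1 (0.19, limma adjusted p = 0.0635) and with only the groups compared (limma adjusted p = 0.0747). At 2 h limma called no member in either direction, with 2 at an unadjusted p under 0.05, where 5.29% of all genes were lower and 3.11% higher. With array weights 2 members were called higher at 2 h (6.59% of all genes), and the other alternatives called at most 1.

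**Figure D5:**
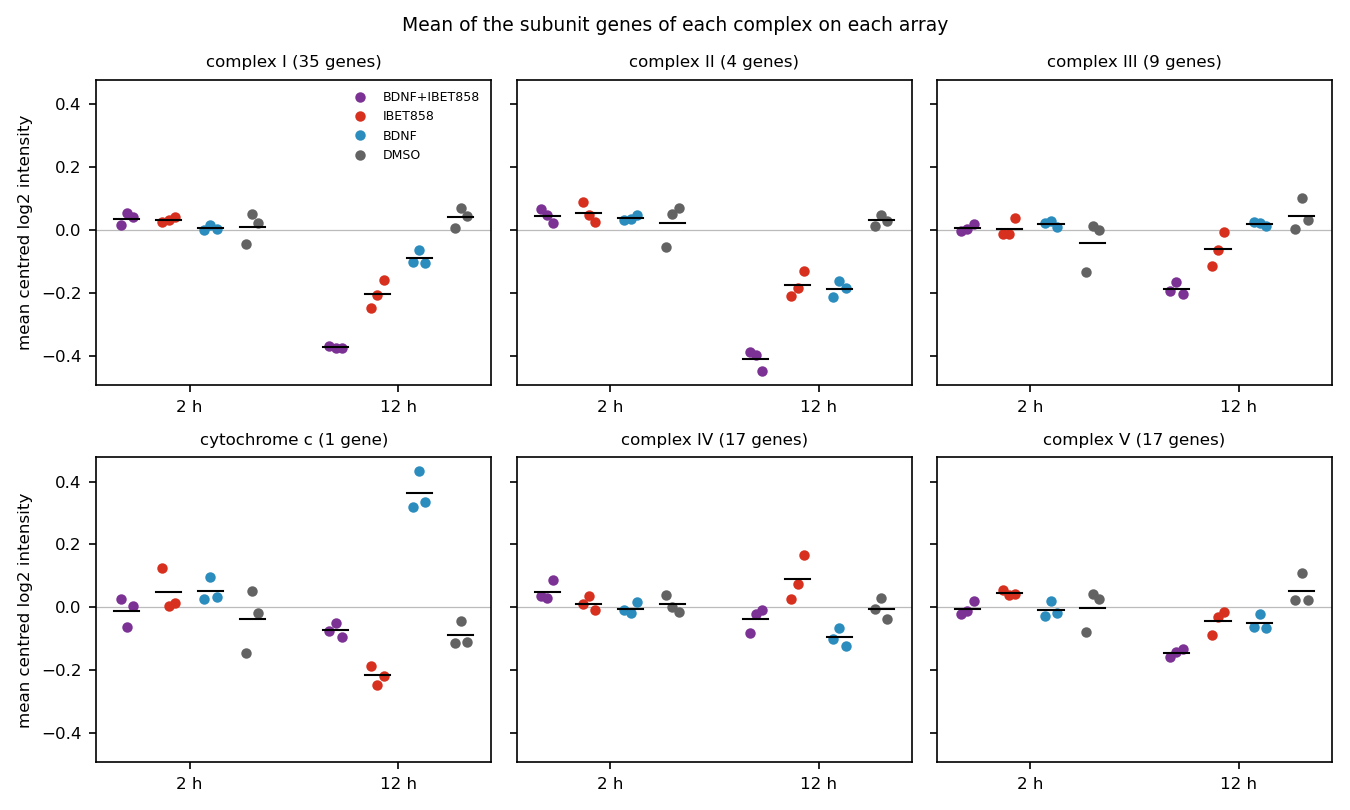
Mean centred log2 intensity of the genes of each complex on each array, with black lines at the group means and groups in the order BDNF+IBET858, IBET858, BDNF and DMSO at 2 h and 12 h. At 12 h the BDNF+IBET858 arrays are lowest for complexes I (-0.375 to -0.368), II, III and V. For complex IV at 12 h the highest array is one of IBET858 (0.167) and the lowest one of BDNF (-0.123), with overlap between groups.

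On the arrays themselves, the mean of the complex I genes ran from -0.375 to -0.368 with both treatments at 12 h, from -0.247 to -0.158 with IBET858, from -0.105 to -0.064 with BDNF and from 0.008 to 0.072 with DMSO. The means of the 4 groups did not overlap and stood in that order. The medians over the complex I genes did overlap, since IBET858 replicate 3 was at -0.036, above the BDNF arrays (-0.095 to -0.079). The mean of the complex II genes ran from -0.448 to -0.387 with both treatments, from -0.209 to -0.131 with IBET858 and from -0.213 to -0.160 with BDNF, so that the groups with 1 treatment overlapped, and from 0.014 to 0.049 with DMSO. The mean of the complex IV genes ran from -0.080 to -0.007 with both treatments, from 0.026 to 0.167 with IBET858, from -0.123 to -0.064 with BDNF and from -0.038 to 0.031 with DMSO. For complex IV the IBET858 arrays overlapped the DMSO arrays, and the arrays with both treatments overlapped those of BDNF and of DMSO. Among the IBET858 arrays, replicate 3 was the highest for each of complexes I to V.

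Other genes of mitochondrial energy metabolism were counted as lists. Assembly factors, which build the complexes but are not part of them, fell in 33 of 53 cases and rose in 10 with IBET858 at 12 h, against 25.8% lower and 22.9% higher over all genes, with a median of -0.26. Nubpl, which delivers iron-sulfur clusters to complex I, was at -1.79 ± 0.089, Ndufaf6 at -1.22 ± 0.074, Coa5, needed for complex IV, at -1.05 ± 0.070 and the copper chaperone gene Sco1 at -0.93 ± 0.18. With BDNF at 12 h 23 fell and 7 rose (24.2% and 16.9% of all genes), and with BDNF+IBET858 against BDNF 33 fell and 9 rose (25.6% and 21.1%). With BDNF at 2 h, when 2 members fell, 24 of the 53 assembly factors fell and 1 rose, and 35 of the 76 mitochondrial ribosome genes fell and 2 rose, where 18.1% of all genes were lower and 9.79% higher. With IBET858 at 2 h, 12 assembly factors and 17 ribosome genes fell and 2 of each rose (9.27% and 5.64% of all genes). Genes of the mitochondrial ribosome fell in 41 of 76 cases and rose in 16 with IBET858 at 12 h (median -0.18), and fell in 48 and rose in 13 with BDNF+IBET858 against BDNF at 12 h. Mrpl36 was at -1.07 ± 0.062 and Mrpl49 at 0.92 ± 0.050 with IBET858. The inner membrane carriers and calcium channel genes had 6 of 22 lower and 4 higher with IBET858 at 12 h, shares close to those of all genes.

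Of 26 regulators of mitochondrial genes, 14 rose and 2 fell with IBET858 at 12 h, where 22.9% of all genes were higher and 25.8% lower, with a median of 0.16. Among them were the deacetylase gene Sirt1 (1.37 ± 0.081), the transcription factor gene Nrf1 (1.17 ± 0.076), the mitochondrial DNA polymerase gene Polg (0.93 ± 0.068) and Creb1 (0.77 ± 0.049). With BDNF 13 rose and 3 fell (16.9% and 24.2% of all genes), led by Gabpb1, a subunit of GABP, at 1.45 ± 0.10. Of 26 glycolysis and lactate transport genes, 13 rose and 5 fell with IBET858 (22.9% and 25.8% of all genes, median 0.15), including the glucose transporter gene Slc2a1 at 1.70 ± 0.080, Pfkl at 0.92 ± 0.066 and Hk2 at 0.80 ± 0.087, while the monocarboxylate transporter gene Slc16a7 was at -1.74 ± 0.087. Of 18 Krebs cycle genes 8 fell and 2 rose with IBET858 (25.8% and 22.9% of all genes, median -0.12), with Idh2 at -0.54 ± 0.064 and the anaplerotic enzyme gene Pcx at 0.45 ± 0.054. With BDNF at 12 h, unlike the members, 5 Krebs cycle genes rose and 2 fell (16.9% and 24.2% of all genes, median 0.075). With BDNF+IBET858 at 12 h, 6 rose and 1 fell against IBET858 (16.1% and 23.2%), and 3 rose and 5 fell against BDNF (21.1% and 25.6%). The array named 1 gene of mitochondrial DNA alone, ND5, which was at 0.011 with IBET858 at 12 h, with no call.

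The genes whose profile over the 24 arrays was most like the mean of the members were Brsk1, a neuronal polarity kinase, and 1110065P20Rik, both with Pearson's r of 0.976, followed by Surf1, a complex IV assembly factor (0.975), Banf1 (0.971) and Rbck1 (0.967). These values describe arrays that share their treatments and normalization.

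Promoter sequence was available from RefSeq (GRCm38.p6) for 67 of the 83 members, as windows of 300 bases, 250 before to 50 after the start of the gene, and it is shown because NRF1 and GABP are known regulators of these genes. Both strands were searched for the NRF1 motif (GCGC, then A and any base, then GCGC), the ETS motif CCGGAAG and the YY1 motif AAGATGG. Of the 48 matches in the members' windows, 0 overlapped a match of another motif. NRF1 matched in 14 windows (20.9%), against 8.31% of the windows of protein-coding genes on the array and 4.78% of all promoters. ETS matched in 16 (23.9%, against 14.3% and 9.12%) and YY1 in 9 (13.4%, against 6.65% and 6.48%). Of the 30 members with a window that fell with IBET858 at 12 h, 23.3% had an NRF1 match, and of the 30 without a call 23.3% had one. A YY1 match was in 6 and 2 of these windows. A match describes exact letters and is not evidence of binding. A window without a match is not evidence that the factor does not bind. Upstream stretches follow, 5′ to 3′ on the strand of the gene, with motif matches in capitals. Sdhd, Ndufa8, Ndufb7 and Atp5g2, called lower with IBET858 at 12 h, and Sdha, not called there, were chosen from members with matches. Members with a match that were called higher there, such as Uqcrh, are not shown. Cox6a1 was chosen as a complex IV gene with both the NRF1 and the ETS motif and no call with IBET858. Cycs and Cox6b2 were chosen as genes without a match, of which Cycs rose and Cox6b2 fell with BDNF at 12 h. These choices were made after the values were seen. The stretches lie at chr9:50603850-50603949 (Sdhd, minus strand), chr13:74350241-74350360 (Sdha, minus strand), chr2:36049339-36049398 (Ndufa8, minus strand), chr8:83566698-83566757 (Ndufb7, plus strand), chr15:102671048-102671107 (Atp5g2, minus strand), chr5:115348959-115349128 (Cox6a1, minus strand), chr6:50566570-50566629 (Cycs, minus strand) and chr7:4753095-4753154 (Cox6b2, minus strand).
Sdhd: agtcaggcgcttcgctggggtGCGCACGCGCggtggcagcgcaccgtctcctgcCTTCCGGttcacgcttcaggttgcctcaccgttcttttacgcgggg
Sdha: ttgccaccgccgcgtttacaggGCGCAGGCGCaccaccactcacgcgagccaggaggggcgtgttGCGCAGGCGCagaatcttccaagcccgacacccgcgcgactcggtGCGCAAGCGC
Ndufa8: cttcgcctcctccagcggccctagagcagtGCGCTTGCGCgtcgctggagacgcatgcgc
Ndufb7: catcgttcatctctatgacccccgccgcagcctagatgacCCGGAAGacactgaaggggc
Atp5g2: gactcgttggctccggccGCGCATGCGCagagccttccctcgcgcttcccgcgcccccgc
Cox6a1: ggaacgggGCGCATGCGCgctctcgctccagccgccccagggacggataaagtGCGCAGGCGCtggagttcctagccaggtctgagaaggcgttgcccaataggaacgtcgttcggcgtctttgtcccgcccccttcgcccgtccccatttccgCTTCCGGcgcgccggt
Cycs: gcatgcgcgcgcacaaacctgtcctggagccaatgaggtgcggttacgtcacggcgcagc
Cox6b2: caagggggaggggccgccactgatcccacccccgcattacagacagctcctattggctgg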

How the data were processed

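Mouse expression arrays were analysed for 8 groups of 3 samples, grouped by the labels. The deposited table holds log2 values that the authors made with RMA, per the submitters' processing notes. The base of the log is not stated there, and RMA works in log2. All 45101 of 45101 probe sets had a median of 0 over the 24 arrays within 1e-06, so the authors' table had been centred per probe set. Detection calls and scanner files were not used here.

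Names came from the platform annotation, in which 34958 probe sets had 1 symbol, 932 had several and 9211 were absent. Symbols of 34754 were updated through RefSeq (GRCm38.p6) by Entrez ID, and 204 kept the platform symbol. By both the platform and the updated symbols the rule gave the same 169 probe sets. Probe sets that name a gene alone were averaged into 1 value. Of the 83 members, 49 had more than 1 probe set, and 9 further probe sets that name a member beside other genes were not used. No dim genes were removed.

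Differences were tested with limma 3.58.1 in R 4.3.3, in 1 model with a mean for each group (16 residual degrees of freedom, prior 4.45 from eBayes). Tests were two-sided, with Benjamini-Hochberg adjustment over 18194 genes. The fit was tested on simulated data. The members and lists were chosen with earlier results of these data known. Members were named by a rule: in the first 3 comparisons at each time up to 8 highest and 8 lowest called members and the largest change of each complex, elsewhere up to 3 each way, with complex II, Cyc1, Cycs and paralogue sets throughout, and up to 4 called genes of each list. Other members that the text names were chosen after their values were seen.

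Alternatives were each probe set on its own, probe sets without _s_, _x_ or _a_ suffixes, arrays centred on their median, array weights, a 1.2-fold minimum, fits to the groups compared, fits without each array, and the replicate number as a block. Same-numbered arrays deviated together in DMSO 12 h against 2 h (correlations 0.509, 0.239 and 0.316), where the numbers were taken to pair samples, and not in the other comparisons. The number of arrays limits the precision.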

Additional observations from a re-analysis of the deposited data

Results flagged for a closer look

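Differences between effects were called for some members. The IBET858 effect at 12 h differed with BDNF from that without BDNF for 3 members, 2 lower and 1 higher. Over all genes 7.24% were lower and 8.94% higher there. The difference was -0.67 for Ndufb1, -0.31 for Cycs and 0.22 for Ndufv3 (limma, adjusted p under 0.05). The call of Ndufv3 was lost without BDNF replicate 1 and with only the groups compared. The IBET858 effect differed between 12 h and 2 h for 34 members, lower at 12 h for 31 and higher for 3. Over all genes 17.4% were lower and 15.8% higher. The named members among them were Ndufs1 (-1.13), Ndufb7 (-0.88), Ndufa5 (-0.81), Cox7c (0.99), Cox6b2 (0.79) and Uqcrh (0.22). The call of Uqcrh was lost in most fits without 1 array and with only the groups compared. For Ndufa5, 1 DMSO array at 2 h (replicate 1) read -0.57, against 0.06 and 0.07 on its group mates, and without it the difference between times was -0.60. Groups of 3 arrays were not searched for single outlying arrays.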

How the results depend on the processing

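Each result was recomputed under the alternatives. Of the summary values (counts and medians), 380 stayed within 1.5 times or 1 standard deviation of the main value, beside fits without 1 array. A further 74 moved more than this, and 5 moved more and changed sign. A median that changed sign within 1 standard deviation is counted among the 380. No named member that was called in either fit changed direction. For single probe sets the one with the lowest p stood for its gene. Another probe set could be called the other way, as for Atp5c1 with IBET858 at 12 h. A result of a named member is that member in a comparison under a setting, so a member can count many times. Under these other settings 36 such results lost their call and 10 gained one. In fits without 1 array 65 calls were lost and 1 was gained. Naming members by the platform symbol changed no count.

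With the 1.2-fold minimum, IBET858 against DMSO at 12 h had 3 higher and 17 lower, BDNF against DMSO 13 lower at 12 h and 0 and 0 at 2 h, and BDNF+IBET858 against IBET858 0 higher and 15 lower at 12 h and 1 higher at 2 h. The 12 h interaction had 0 higher and DMSO 12 h against 2 h 0 lower. In these the threshold itself removes small changes. Shares of all genes at this minimum are not given. For the other changes below the cause was not tested.

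With array weights, IBET858 against DMSO at 2 h had 3 higher, 5 lower and a median of 0.00025. Over all genes 16.2% were higher and 15.8% lower there, against 5.64% and 9.27% in the main fit. BDNF against DMSO at 2 h had 5 lower (26.1% of all genes) and a median of -0.021, which changed sign. BDNF+IBET858 at 2 h had 6 higher and 2 lower against BDNF (17.4% and 17.9% of all genes). At 12 h BDNF+IBET858 had 4 higher against IBET858 (15.9%). The 2 h interaction had 2 higher (6.59%) and a median that changed sign, 0.017. The 12 h interaction had 2 higher (10.3%). The difference between times had 5 higher (19.0%). DMSO 12 h against 2 h had 5 higher and 3 lower (10.5% and 11.1%), with a median of 0.011.

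With each array centred on its median, the complex IV median with IBET858 at 12 h changed sign (-0.017). So did the median of BDNF+IBET858 against BDNF at 2 h (-0.015, with 2 lower, against 16.3% of all genes). That of BDNF+IBET858 against IBET858 at 12 h was -0.094.

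With each probe set on its own (a member counted if any probe set was called), IBET858 against DMSO at 12 h had 11 higher. BDNF against DMSO had 4 higher and 6 lower at 2 h and 6 higher at 12 h, with medians of -0.17 for complex II and -0.035 for complex IV. BDNF+IBET858 against BDNF had 5 lower at 2 h and a complex III median of -0.19 at 12 h. The interaction had 1 higher at 2 h and 5 lower at 12 h, the difference between times 7 higher, and DMSO 12 h against 2 h 1 higher. All genes were not counted in this way.

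With probe sets without _s_, _x_ or _a_ (67 of the 83 members), the IBET858 medians at 12 h were -0.24 for complex II and 0.060 for complex IV. For complex III the median was 0.16, a change of sign, over a set without Uqcrc1 and Uqcrc2, which have no such probe set. The BDNF medians at 12 h were -0.20 for complex II and -0.041 for complex IV. BDNF+IBET858 against BDNF at 12 h had 25 lower (24.2% of the 16593 genes with such probe sets). Its medians were -0.30, -0.10 and 0.045 for complexes I, III and IV. BDNF+IBET858 against IBET858 at 12 h and the 12 h interaction each had 0 higher (15.1% and 8.22% of these genes). The difference between times had 5 higher (15.1%) and 20 lower (2656 of the 16593 genes). DMSO 12 h against 2 h had 1 higher and 0 lower (3.83% and 3.42%).

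With only the groups compared, IBET858 against DMSO at 2 h had 0 higher and 1 lower (3.51% and 5.97% of all genes). At 12 h it had 4 higher (17.7%). BDNF against DMSO at 2 h had 0 higher (7.45%). BDNF+IBET858 against IBET858 at 12 h had 1 higher and 20 lower (12.6% and 17.0%). The interaction had 1 higher at 2 h (2.81%) and 0 at 12 h (7.54%), and DMSO 12 h against 2 h 0 lower (0.385%).

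With a replicate block, BDNF against DMSO at 2 h had 1 higher (9.42% of all genes). BDNF+IBET858 against IBET858 at 12 h also had 1 higher (15.6%), and DMSO 12 h against 2 h 0 lower (1.94%). With the block across both times, added after seeing the data, DMSO 12 h against 2 h had 1 higher (5.32%). Where the numbers pair no samples the block is only a number, and the other counts of calls stayed within 1.5 times under it.

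Without DMSO 2 h replicate 1 and IBET858 12 h replicate 3 together, 0 were higher with IBET858 at 2 h (median 0.0016) and 0 with BDNF at 2 h. Over all genes 6.17% and 9.38% were higher there. BDNF+IBET858 had 6 higher against BDNF at 2 h (16.6% of all genes). Against IBET858 at 12 h it also had 6 higher (2919 of 18194 genes), with a median of -0.11. The 12 h interaction had 2 higher and 4 lower (10.3% and 9.22% of all genes). DMSO 12 h against 2 h had 2 lower (6.46%), with a median of 0.0037.

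Without 1 array at a time, counts of members higher ran from 0 to 2 for IBET858 at 2 h, 0 to 1 for BDNF at 2 h, 1 to 3 for BDNF+IBET858 against BDNF at 2 h (lower, 1 to 2), 0 to 4 and 1 to 2 for BDNF+IBET858 against IBET858 at 12 h and 2 h, 0 to 1 for both interactions (lower at 12 h, 2 to 4), and 0 to 1 for DMSO 12 h against 2 h (lower, 0 to 1). Medians ran from 0.0016 to 0.049 for IBET858 at 2 h, -0.16 to -0.11 for BDNF+IBET858 against IBET858 at 12 h, 0.0037 to 0.057 for DMSO 12 h against 2 h and -0.16 to -0.076 for the difference between times. Medians of complexes I and V with IBET858 at 12 h ran from -0.22 to -0.15 and -0.11 to -0.053, and of IV and V with BDNF at 12 h from -0.11 to -0.054 and -0.11 to -0.057. Complex III medians at 12 h ran from -0.10 to -0.022 with IBET858 and from -0.040 to -0.0060 with BDNF (0.017 with each array centred on its median). Medians that took both signs were those of complex IV with IBET858 at 12 h (-0.011 to 0.022), of the members with BDNF at 2 h (-0.017 to 0.030) and of the 2 h interaction (-0.034 to 0.012). Counts of lower members at 12 h ran from 27 to 35 (IBET858 against DMSO), 23 to 31 (BDNF against DMSO), 32 to 37 (BDNF+IBET858 against BDNF) and 31 to 41 (against IBET858), and for the difference between times from 27 to 34. Shares of all genes in the fits without 1 array are not given.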
